A study of Arabidopsis thaliana with 11 samples.

Results

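Divergent promoters are stretches of DNA that lie between 2 genes read in opposite directions, so that a factor bound there sits upstream of both. HY5 peaks in such promoters were described here. They were chosen by the presence of a peak in the HY5ox libraries and by its place, in 2 steps: a peak of HY5ox replicate 1 had to overlap a peak of HY5ox replicate 2 and a peak of HY5ox replicate 3 by at least 1 bp, and the authors' annotation table of HY5ox replicate 1 had to place it within their promoter window of 2000 bp for genes on both strands. This gave 1448 peaks of the 5101 found in all 3 HY5ox libraries, which are called the HY5ox consensus peaks, and of the 12447 listed for HY5ox replicate 1. The peaks named 2937 genes and formed 1390 distinct gene pairs. The HY5ox values chose the peaks, so those values are a description and carry no test.

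HY5 is a bZIP transcription factor that promotes seedling development in light. In darkness the COP1/SPA ubiquitin ligase targets it for degradation. It binds DNA mainly at elements with an ACGT core, such as the G-box, and it lacks a strong activation domain of its own. The question a divergent promoter poses is which of the flanking genes a bound factor serves, which a binding map alone does not answer.

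The HY5-VP16 libraries (3) came from seedlings expressing HY5 fused to the VP16 activation domain, a strong activator from a herpes virus. The HY5-SRDX libraries (2) carried HY5 fused to SRDX, a plant repression motif, and the HY5ox libraries (3) carried HY5 without a fused domain. All these proteins bore the FLASH tag and were driven by the viral 35S promoter, which is active in most cell types, so the binding is that of an overexpressed protein and not of HY5 at its native level. The ecotype was Columbia throughout, and the labels do not say whether the tagged lines also carried a working copy of HY5. Untagged Col-0 seedlings were the controls of set 1 and set 3, and hy5 mutant seedlings that of set 2. Set 1 held HY5-VP16 replicates 1 and 2, both HY5-SRDX libraries and HY5ox replicate 1, set 2 held HY5ox replicate 2, and set 3 held HY5-VP16 replicate 3 and HY5ox replicate 3. Seeds of all samples were stratified in the cold. All seedlings were grown in the dark for 3 days at 21 °C and then given 2.5 h of simulated white light at 100 µmol m−2 s−1. Chromatin of whole seedlings was precipitated with a Flag antibody, so binding in fewer cells and weaker binding in each cell cannot be told apart.

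The 8 tagged libraries held 11509174 to 56030246 tags and 2958 to 20509 listed peaks. HY5-VP16 replicate 3 stood apart: it was the deepest, had the shortest list, and only 1.83% of the tags fell in peaks, where the other libraries had 5.94% to 10.1%. HY5-SRDX replicate 1 had the longest list. Presence is given for each library. Nothing in the labels says that replicates came from separate cultures or lines. The p-values below are therefore set against a spread between libraries that may be technical.

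Most peaks in divergent promoters lay close to a start site, and the distance to the farther start varied widely. The median distance from the peak centre to the nearer start site was 115 bp (interquartile range 40 to 251 bp) over the 1448 peaks, and the median distance to the farther start site was 863 bp (312 to 1451 bp). The nearer start lay within 250 bp of the centre for 1085 peaks (74.9%), and both starts did so for 282 peaks. Both starts lay within 500 bp for 500 peaks (34.5%). For comparison, the 2615 consensus peaks that named a single gene upstream had a median of 221 bp to that gene's start. Taking the nearer of 2 starts shortens a distance by construction, so these medians are not tested against each other. Sorting the 2 distances of a peak into nearer and farther also sets those apart by construction.

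The start sites of a pair were 1033.5 bp apart in the median (interquartile range 406.75 to 1749 bp), from an overlap of 63 bp to a gap of 4022 bp. In 196 promoters the peak centre had already passed the nearer start into the gene, and in 4 the 5′ ends of the genes overlapped. Of the 737 peaks in promoters wider than 1000 bp, 412 (55.9%) still lay within 250 bp of a start, and 173 (23.5%) lay in the middle when the promoter was split into 3 equal stretches. The nearer gene was on the plus strand for 728 of the 1448 peaks, so the strands were nearly even. In 69 cases the farther start was more than 2000 bp from the centre, at most 2136 bp, so that only the edge of the peak reached into the window.

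**Figure D1:**
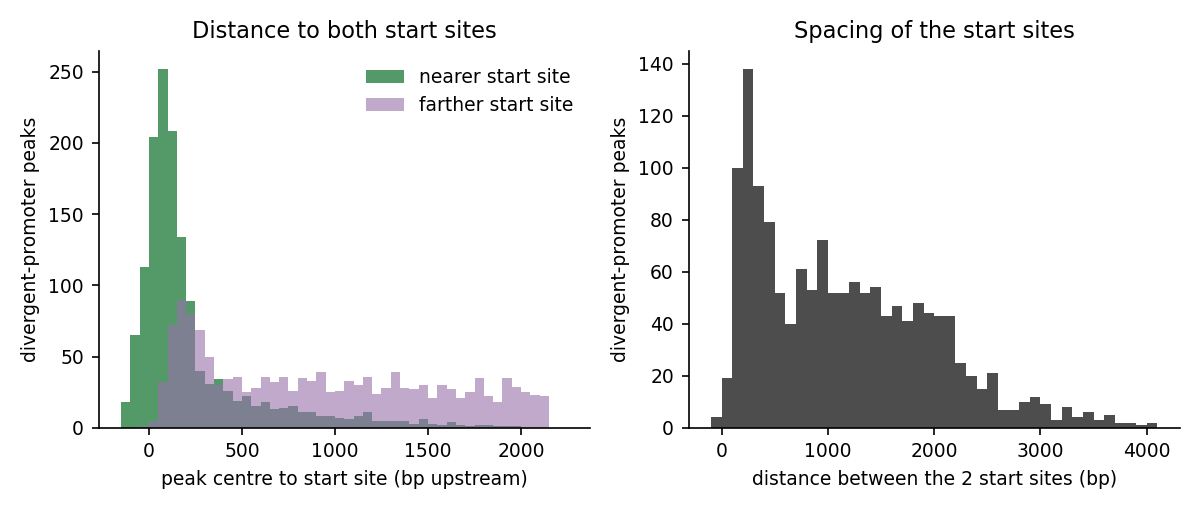
Distances in the 1448 divergent promoters, in HY5ox replicate 1 coordinates. The left histogram counts peaks by distance in bp from the peak centre to the nearer (green) and the farther (purple) start site, with negative values inside the gene, and the right histogram counts them by distance in bp between the start sites. The nearer start has its median at 115 bp, while the farther start is spread out to 2136 bp.

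In the distance plot nearer starts pile up close to the peak, and farther starts form a broad plateau. Part of this difference comes from the sorting into nearer and farther. Most pairs joined ordinary genes. Both genes were protein-coding at 1246 peaks, a tRNA gene was part of 41 pairs and a microRNA gene of 4. Where both genes were in the reference gene table (1403 peaks), 1114 (79.4%) of the pairs were immediate neighbours in gene order. More than a pair was named by some peaks, 3 genes by 167 and 4 by 12.

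At the edge of the consensus rule the 5 included peaks with an overlap of 20 bp or less had a median fold over control of 6.76 and a median percentile rank of 58.4 in HY5ox replicate 1 (0 strongest). The 7 divergent peaks that missed an overlap by 20 bp or less had a fold of 6.97 and a percentile rank of 35.1. Before the consensus step 3135 peaks of HY5ox replicate 1 were divergent, and 1687 of them were dropped.

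The genes flanking the 10 peaks with the best mean rank over the HY5ox lists were of mixed kinds. They included genes of plastid transcription, stress response, cell patterning, karrikin signalling and sulfate assimilation. Many of the others, and some whole pairs, had a locus name only. Ranks below are by the authors' peak score within each library's own list, with 1 the strongest, and fold is the authors' ratio of tags in the library to tags in its control at the peak. The lists differ in length, so a rank is read within its list. Tied scores share a rank.

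The peak between SIG5, a nuclear gene for a plastid RNA polymerase sigma factor, and AT5G24130 led the group (chromosome 5, 8161389 to 8161661, TAIR10). It ranked 4, 6 and 9 in HY5-VP16 replicates 1 to 3 and 15 and 48.5 in HY5-SRDX replicates 1 and 2, against 13.5, 3 and 12 in HY5ox replicates 1 to 3. Its fold over control was 27.5, 26.7 and 16.2 in the HY5-VP16 libraries and 11.1 and 20.9 in the HY5-SRDX ones, against 28.7, 13.1 and 35.0 in HY5ox. All 8 libraries thus placed it among their first 50 peaks. Its centre was 1296 bp upstream of SIG5 and 689 bp upstream of AT5G24130, so the gene known from light responses was the farther of the pair.

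The peak between CPC, a small MYB protein that sets hair cell fate in the root epidermis, and AT2G46420 lay in the widest of the leading promoters (chromosome 2, 19051954 to 19052226). Its start sites were 3346 bp apart, with CPC 1749 bp and AT2G46420 1597 bp from the centre. It ranked 6, 16 and 8 in the HY5-VP16 libraries and 36 and 9 in the HY5-SRDX ones, against 9, 4 and 17 in HY5ox. This peak was near the middle of its promoter: the 8 centres fell between 35 and 92 bp from the midpoint, all on the side of AT2G46420.

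A compact promoter joined UBC32, a ubiquitin-conjugating enzyme of the endoplasmic reticulum, and AT3G16990 (chromosome 3, 5796871 to 5797143). The centre was 173 bp from UBC32 and 157 bp from AT3G16990. It ranked 5, 17.5 and 30.5 in the HY5-VP16 libraries and 11.5 and 48.5 in the HY5-SRDX ones, against 2, 7 and 18 in HY5ox. DREB2A, an activator of drought and heat responses, shared its promoter with AT5G05400 (chromosome 5, 1601272 to 1601544, centre 798 bp from DREB2A). There the ranks were 17, 38 and 16 in the HY5-VP16 libraries and 78.5 and 325 in the HY5-SRDX ones, against 23, 28.5 and 14 in HY5ox. The remaining pairs listed in all 8 libraries were MAPKKK14 with AT2G30032, AT1G74780 with AT1G74770, AT4G32295 with AT4G32290 and AT3G22440 with AT3G22436. The last ranked 32, 108.5 and 46 in the HY5-VP16 libraries and 1090.5 and 1151.5 in the HY5-SRDX ones, against 11, 13 and 8 in HY5ox.

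A pair of the leading promoters were missing from HY5-SRDX replicate 1. One joined KAI2, the receptor for karrikins, and AT4G37480, with KAI2 612 bp and AT4G37480 177 bp from the centre (chromosome 4, 17618949 to 17619221). Its peak ranked 99.5, 264.5 and 26 in HY5-VP16 and 774.5 in HY5-SRDX replicate 2, against 58.5, 10 and 4 in HY5ox. The other joined APR2, an enzyme that reduces activated sulfate, and AT1G62181, with start sites only 88 bp apart (chromosome 1, 22977570 to 22977842). Its peak ranked 258.5, 193 and 34 in HY5-VP16 and 3157.5 in HY5-SRDX replicate 2, against 16, 37 and 13 in HY5ox.

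**Figure D2:**
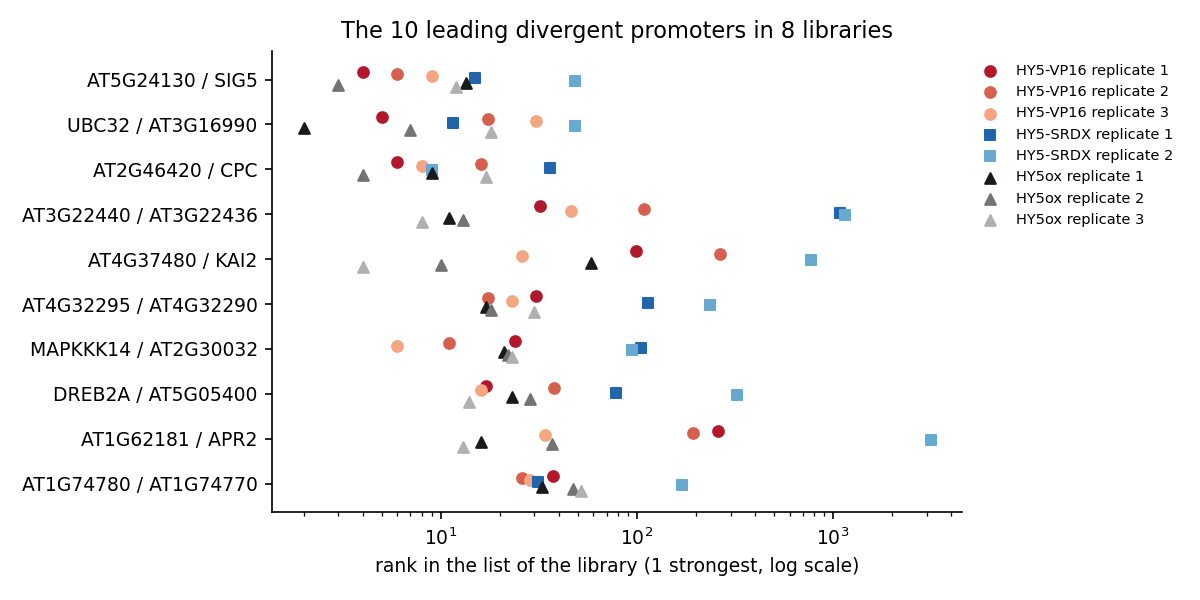
Rank of the 10 leading divergent-promoter peaks in each library's list, on a log axis with 1 the strongest. Circles are HY5-VP16, squares HY5-SRDX and triangles HY5ox libraries, and an absent square means that the peak was not listed there. The HY5-SRDX squares lie farthest right at AT3G22440/AT3G22436, where both are above 1000, and at APR2, where replicate 2 is at 3157.5.

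In the plot of leading ranks the HY5-VP16 circles stay at rank 264.5 or better for all 10 pairs. The HY5-SRDX squares spread from rank 9 to 3157.5. The HY5-VP16 lists hold 2958 to 13375 peaks and the HY5-SRDX lists 20509 and 12672, so these ranks do not share a common scale.

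Presence in the HY5-VP16 and HY5-SRDX libraries was not used to choose the peaks. HY5-VP16 replicate 1 listed 1153 of the 1448 peaks (79.6%, 95% Wilson interval 77.5% to 81.6%), and it listed 80.7% of all consensus peaks. HY5-VP16 replicate 2 listed 1114 (76.9%, 74.7% to 79.0%), against 76.3% of all consensus peaks. HY5-VP16 replicate 3 listed 634 (43.8%, 41.2% to 46.4%), against 46.4% of all. The divergent peaks thus stood within 3 percentage points of the consensus peaks as a whole in each HY5-VP16 library. HY5-SRDX replicate 1 listed 452 (31.2%, 28.9% to 33.6%), against 34.5% of all consensus peaks. HY5-SRDX replicate 2 listed 915 (63.2%, 60.7% to 65.6%), against 66% of all. The longest list, that of HY5-SRDX replicate 1, thus held the smallest share of the divergent peaks. These intervals cover counting error only.

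HY5-VP16 libraries listed 66.8% ± 19.96 of the divergent peaks (SD, n = 3) and HY5-SRDX libraries 47.2% ± 22.6 (SD, n = 2). The difference of 19.6 percentage points was within the spread between libraries (two-sided exact permutation test, p = 0.4, where the smallest p of the design is 0.1, adjusted p = 0.5 over the 5 tests made here by the Benjamini-Hochberg method). It was 31.1 points without HY5-VP16 replicate 3, which is also the difference within set 1 (78.3% against 47.2%), 3.59 points without HY5-SRDX replicate 1 and 35.6 points without HY5-SRDX replicate 2. Single-gene consensus peaks also differed between the constructs, with mean shares of 68.1% in HY5-VP16 and 52.3% in HY5-SRDX. For divergent peaks the groups overlapped, since HY5-VP16 replicate 3, which has the shortest list, listed fewer of the peaks than HY5-SRDX replicate 2. With every list cut to its 2958 strongest peaks they did not overlap: the shares were 40.6%, 36.9% and 43.8% in HY5-VP16 replicates 1 to 3, against 13.7% in HY5-SRDX replicate 1 and 27.3% in HY5-SRDX replicate 2. The difference was then 19.97 points, at the smallest p that the exact permutation test allows (p = 0.1). At that cut the share of divergent minus single-gene peaks differed by only 0.365 points between the constructs. Single-gene peaks thus differed between the constructs by nearly as much, and the difference is not particular to divergent promoters.

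Divergent peaks were set against the most similar peaks, those upstream of a single gene. Divergent minus single-gene, the share listed differed by -2.36, 0.567 and -2.26 points in HY5-VP16 replicates 1 to 3 and by -4.85 and -5.30 points in HY5-SRDX replicates 1 and 2. The mean difference was -2.84 points, lower in 4 of 5 libraries, and did not pass the test (two-sided exact sign-flip permutation test, p = 0.125, smallest possible 0.0625, adjusted p = 0.208). It was -1.45 points when the consensus was taken without HY5ox replicate 2. Against all other consensus peaks the mean difference was -2.56 points (the same exact test, p = 0.125, adjusted p = 0.208), and -0.713 points without HY5ox replicate 2.

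The gap between divergent and single-gene peaks averaged -1.35 ± 1.66 points in HY5-VP16 (SD, n = 3) and -5.07 ± 0.320 points in HY5-SRDX (SD, n = 2). The libraries did not overlap. The difference of 3.72 points reached the smallest p that 3 against 2 libraries allow (two-sided exact permutation test, p = 0.1, adjusted p = 0.208), which is above 0.05, so this design cannot place it beyond the spread. It was 0.365 points when all lists were cut to the length of the shortest, 2958 peaks, and 1.81 points with the stricter overlap of 50%. Where listed, divergent peaks ranked about like single-gene peaks: the median percentile rank (0 strongest) differed by 3.26, 1.51 and -4.53 points in HY5-VP16 replicates 1 to 3 and by -1.75 and 5.06 points in HY5-SRDX replicates 1 and 2. The mean difference was 0.709 points, with both signs in each construct (two-sided exact sign-flip permutation test, p = 0.6875, adjusted p = 0.688).

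**Figure D3:**
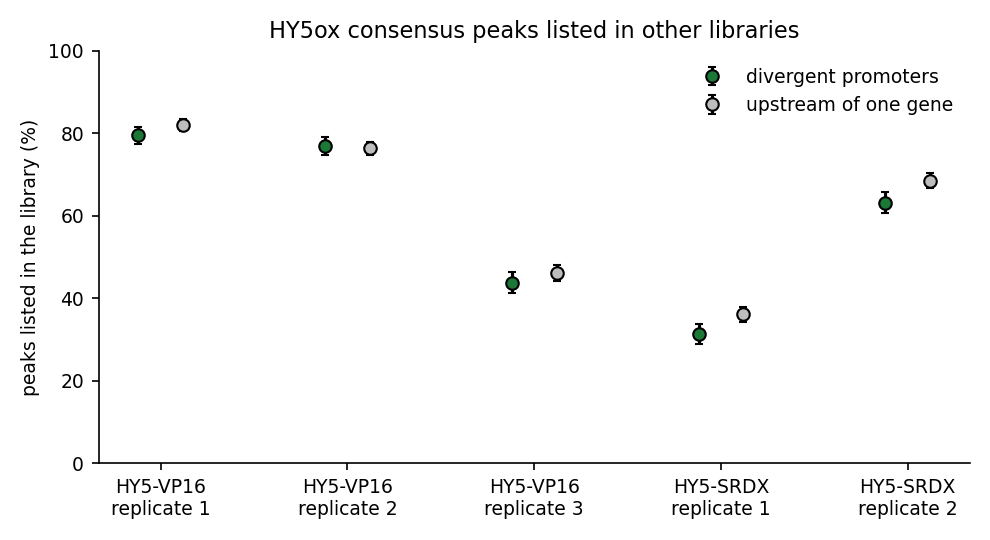
Share in percent of HY5ox consensus peaks listed in each HY5-VP16 and HY5-SRDX library, for the 1448 peaks in divergent promoters (green) and the 2615 upstream of a single gene (grey). Bars are 95% Wilson intervals. The green and grey points differ by -5.30 to 0.567 percentage points within a library, while libraries differ from 31.2% to 79.6%.

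In the plot of shares the libraries differ more than the classes of promoter do. In the 5 libraries the centre of the overlapping peak was shifted by a median of 32 to 59 bp, the library's own annotation named both genes of the pair for 92.7% to 97.9% of the listed peaks, and the nearer gene was the same for 90.9% to 94.8%. These values hold for peaks that overlap, which limits the shift to the peak widths.

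All 3 HY5-VP16 and both HY5-SRDX libraries listed 254 divergent peaks (17.5%, against 17.7% of all consensus peaks). All 3 HY5-VP16 libraries listed 552 (38.1%, against 38.9%), and both HY5-SRDX libraries listed 404 (27.9%, against 30.4%). None of the 5 listed 102 (7.04%, against 5.43%). All 3 HY5-VP16 and neither HY5-SRDX library listed 97 (6.70%, against 6.39%), while the opposite pattern was found at 3 peaks (0.207%, against 0.549%). All 6 shares were within 3 percentage points of those of all consensus peaks.

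The closer the start sites of a pair, the less often the HY5-SRDX libraries listed its peak. HY5-SRDX replicate 1 listed 16.99% of the 206 peaks with start sites 250 bp apart or less, 26.9% of the 227 at 251 to 500 bp, 29.5% of the 278 at 501 to 1000 bp, 35.0% of the 489 at 1001 to 2000 bp and 41.5% of the 248 beyond 2000 bp. HY5-SRDX replicate 2 listed 46.1%, 61.7%, 61.9%, 67.9% and 71.0% of the same classes. In the HY5-VP16 libraries the narrowest and the widest class were closer together. HY5-VP16 replicate 1 listed 76.2% and 84.7%, replicate 2 listed 74.3% and 77.0%, and replicate 3 listed 40.8% and 48.0%.

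Rank followed the same course. The median percentile rank of the listed peaks was 54.3, 39.4, 17.7, 19.3 and 9.996 from the narrowest to the widest class in HY5-SRDX replicate 1, and 48.6, 41.7, 29.02, 29.3 and 17.7 in HY5-SRDX replicate 2. The HY5ox lists, which chose the peaks, changed less than the HY5-SRDX ones. HY5ox replicate 1 had 26.9 in the narrowest and 19.9 in the widest class. The same values were 35.4 and 36.4 in replicate 2, and 29.9 and 27.7 in replicate 3. In the HY5-VP16 libraries the median was 37.2 in the narrowest and 23.8 in the widest class in replicate 1, 27.7 and 18.9 in replicate 2, and 44.4 and 44.6 in replicate 3. Peaks of narrow promoters thus ranked lower than those of wide ones in both HY5-SRDX lists. By a smaller margin they did so in HY5-VP16 replicates 1 and 2 and in HY5ox replicate 1, but not in HY5-VP16 replicate 3. The difference between the constructs in this trend was not tested.

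This pattern was noticed in the data and is given as a description. Narrow promoters leave little room, and the nearer start was a median of 15 bp from the centre in the narrowest class and 706 bp in the widest. Among the peaks with a start within 250 bp, HY5-SRDX replicate 1 listed 16.99% in the narrowest class and 26.9% to 29.6% in the wider ones, and HY5-SRDX replicate 2 listed 46.1% and 58.3% to 65.5%. Closeness to a start went with less listing in single-gene promoters too: HY5-SRDX replicate 1 listed 27.7% of the single-gene peaks within 100 bp of the start and 41.6% of those beyond 1000 bp, and HY5-SRDX replicate 2 listed 62.7% and 71.6%. At 100 bp or less the divergent peaks stood at 21.9% in HY5-SRDX replicate 1 and 54.5% in replicate 2. The 2 HY5-SRDX libraries share 1 control library with HY5-VP16 replicates 1 and 2 and HY5ox replicate 1. The comparison with it removed 60.2% and 53.0% of the candidate peaks in HY5-SRDX replicates 1 and 2. The values were 41.2% and 53.5% in HY5-VP16 replicates 1 and 2, and 35.1% in HY5ox replicate 1. The part of control signal at start sites in this result was not tested.

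**Figure D4:**
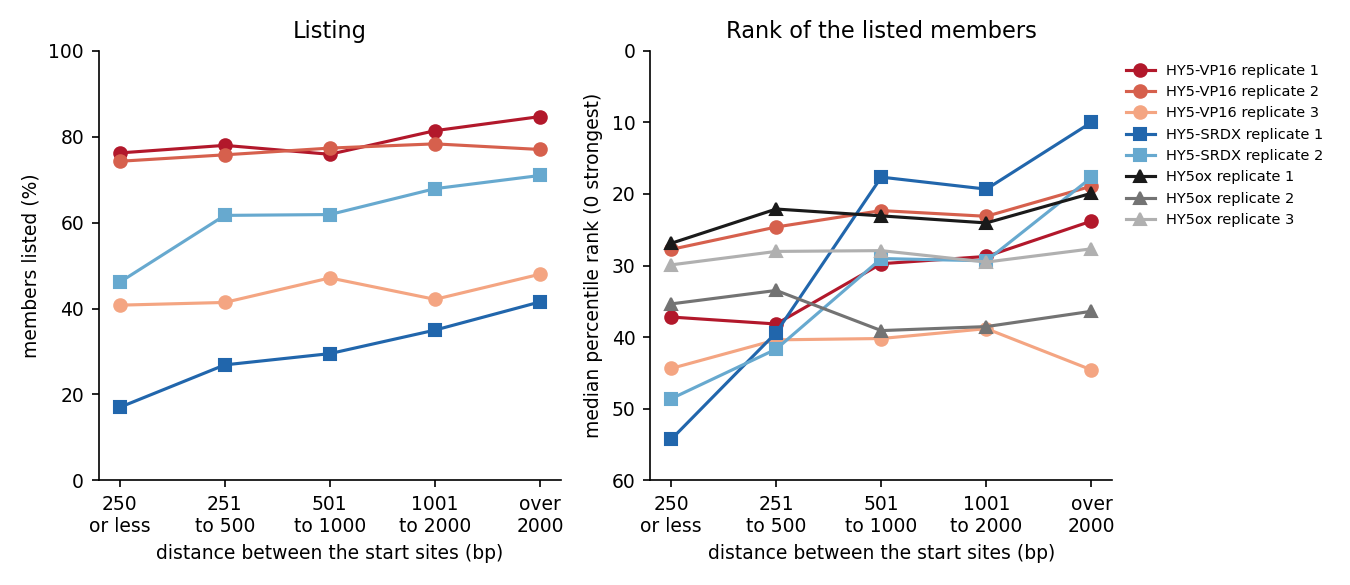
Divergent-promoter peaks by distance in bp between the start sites (classes of 206, 227, 278, 489 and 248 peaks). The left panel gives the share in percent listed in each HY5-VP16 (circles) and HY5-SRDX (squares) library, and the right panel the median percentile rank of the listed peaks, with 0 the strongest at the top, and adds HY5ox (triangles). The HY5-SRDX lines climb from 16.99% to 41.5% and from 46.1% to 71.0%, while the HY5ox ranks stay between 19.9 and 39.1.

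The spacing plot sets the steep HY5-SRDX lines beside the flatter lines of the HY5ox libraries, which chose the peaks. The 97 peaks listed in all 3 HY5-VP16 and neither HY5-SRDX library had start sites a median of 596 bp apart, against 1177.5 bp for the 254 listed in all 5 libraries.

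Genes of light and related pathways were taken from 8 lists with 128 genes in all. The lists were written with earlier results of these data known, so their shares are a description and no test. A divergent peak named 38 of them (29.7%), where 7.62% of 37899 nuclear loci were so named. Any consensus promoter peak named 75 (58.6%, against 14.9% of loci). Of the list genes with a promoter peak, 50.7% had it in a divergent promoter, and of all genes with a promoter peak 51.1% did, so divergence was as frequent among the list genes as among the rest. In no divergent pair were both genes on the lists. The 38 genes had 47 peaks, of which 17 were listed in all 5 HY5-VP16 and HY5-SRDX libraries and 4 in none. Of all divergent peaks 17.5% were listed in all 5 and 7.04% in none, and of all consensus peaks 17.7% and 5.43%. HY5 itself was no member: its own promoter peak (chromosome 5, 3594894 to 3595166) named a single gene and was listed in all 5.

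Of the 26 light signalling genes 6 were in divergent promoters, with 9 peaks. SPA1, a partner of COP1 in the ligase that degrades HY5, lay opposite AT2G46360, and its peak was 457 bp from SPA1 and 619 bp from AT2G46360. It ranked 82, 115.5 and 43 in the HY5-VP16 libraries and 74.5 and 82.5 in the HY5-SRDX ones, against 117, 249 and 61 in HY5ox. COP1 itself lay opposite AGO6, an Argonaute of RNA-directed DNA methylation, with start sites 458 bp apart and the peak 123 bp from COP1. Its peak ranked 536, 2300.5 and 502 in the HY5-VP16 libraries and 783.5 and 1863.5 in the HY5-SRDX ones, against 541, 701.5 and 613 in HY5ox. Both were listed in every library, as was the peak between SPA3 and AT3G15359. A second peak upstream of SPA3, paired with AT3G15351, was 1239 bp from SPA3 and was listed in 4 of 5. It did not lie between SPA3 and AT3G15359 but past the start of AT3G15359. The pair of SPA3 with AT3G15351 thus spans the start of another gene.

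HFR1, an atypical bHLH protein that acts in far-red light, shared a promoter of 1975 bp with AT1G02350 that held a peak on each side. The peak 11 bp from HFR1 ranked 585, 1277 and 1079.5 in the HY5-VP16 libraries and 10308.5 and 1318 in the HY5-SRDX ones, against 826, 1365 and 1984 in HY5ox. The peak 464 bp from AT1G02350 ranked 788.5, 774.5 and 637.5 in the HY5-VP16 libraries and 722 and 621 in the HY5-SRDX ones, against 809, 2130.5 and 786 in HY5ox. All 8 libraries listed both, and in HY5-SRDX replicate 1 the peak at HFR1 was far down the list of 20509. PHYB, the main red light photoreceptor in green plants, also had a pair of peaks. The one 398 bp from AT2G18780 was listed in all 5 HY5-VP16 and HY5-SRDX libraries, and the one 229 bp from PHYB in 4. With lists of equal length these counts were 3 and 1. BIC1, an inhibitor of cryptochrome photoactivation, was listed in 2 of 5.

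The clock list had 10 of 21 genes in divergent promoters, with 12 peaks. LUX, a DNA-binding member of the evening complex, lay opposite AT3G46630 with its start 211 bp from the peak. It ranked 261.5, 264.5 and 273 in the HY5-VP16 libraries and 1686 and 67.5 in the HY5-SRDX ones, against 83.5, 65 and 324 in HY5ox. BOA, the closest relative of LUX, shared a promoter with SRR1, a gene needed for normal red light responses and clock function. Its peak was 90 bp from BOA and 1842 bp from SRR1, and it was listed everywhere except HY5-SRDX replicate 1. LNK1, a clock coactivator, had a central peak 178 bp from its start that all 8 libraries listed.

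TOC1, an evening-phased repressor of morning clock genes, had 2 peaks in the promoter it shares with AT5G61370. The peak 145 bp from TOC1 ranked 85.5, 361.5 and 201 in the HY5-VP16 libraries and 209 and 281.5 in the HY5-SRDX ones, against 614.5, 376 and 118 in HY5ox. The peak 400 bp from AT5G61370 was listed in none of the HY5-VP16 and HY5-SRDX libraries and ranked 5883.5, 4876 and 5133.5 in HY5ox. The side facing TOC1 was thus the one seen in every library. PRR7, which lies opposite RHL2, was listed in 3 of 5. PRR3, opposite PUM18, was listed in all 3 HY5-VP16 and neither HY5-SRDX library. GI and LKP2 were listed in 1 of 5, both in HY5-VP16 replicate 2, RVE4 in 3, and the peaks of LNK2 in 3 and 1. With lists of equal length the counts were 2 for PRR7, 1 for PRR3, 0 for GI, LKP2 and RVE4, and 2 and 1 for LNK2.

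**Figure D5:**
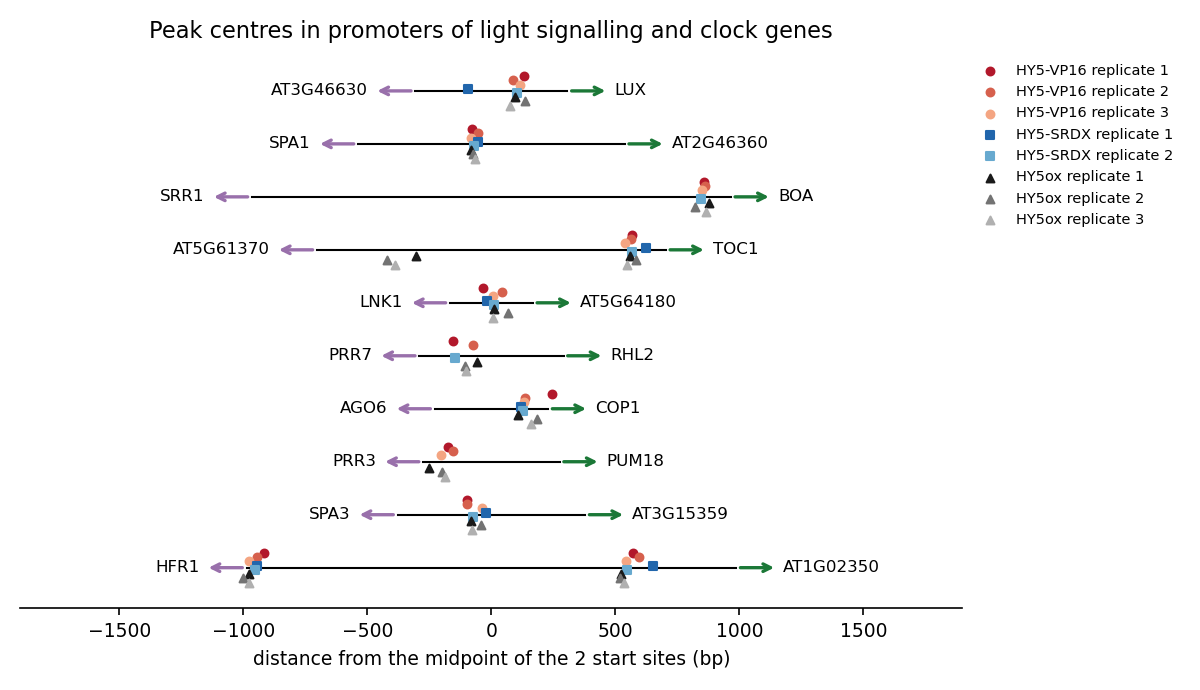
Peak centres in the 10 best-ranked divergent promoters of light signalling and clock genes, as distance in bp from the midpoint of the start sites. Black lines run between the start sites, arrows give the direction of the genes, and each symbol is the peak centre in 1 library (circles HY5-VP16, squares HY5-SRDX, triangles HY5ox). At TOC1 the peak on the left has HY5ox symbols only, and at HFR1 both peaks have symbols of all 8 libraries.

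The promoter maps show the libraries close together in most of these promoters. Only peaks that overlap the HY5ox replicate 1 peak are drawn, which limits the shift to the peak widths. At SPA1 the 8 centres fell between 53 and 82 bp on the SPA1 side of the midpoint. At LUX 7 centres lay on the LUX side, and that of HY5-SRDX replicate 1 lay on the other.

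Of 17 flavonoid genes 6 were in divergent promoters. F3H, which makes dihydroflavonols, lay 142 bp from its peak and opposite AT3G51230. That peak was near the top in HY5-VP16 and near the bottom in HY5-SRDX: it ranked 10, 241 and 64 in HY5-VP16, with lists of 9514, 13375 and 2958, and 20001 and 10188 in HY5-SRDX, with lists of 20509 and 12672, against 50.5, 278.5 and 135.5 in HY5ox. Its fold over control was 21.2, 8.77 and 10.8 in the HY5-VP16 libraries and 3.80 and 3.84 in the HY5-SRDX ones, against 20.6, 13.5 and 20.6 in HY5ox. FLS1, flavonol synthase, 78 bp from its peak, ranked 137, 174.5 and 136.5 in HY5-VP16 and was listed in neither HY5-SRDX library, against 372, 296.5 and 303 in HY5ox. The F3H peak was thus near the end of the HY5-SRDX replicate 1 list and in the lower part of that of replicate 2, and the FLS1 peak was in neither. The peak of MYB11, a regulator of flavonol genes, was 1126 bp away and 123 bp from the chaperone gene ATERDJ3B, and was listed in all 5. DFR, an enzyme of the anthocyanin branch, had 2 peaks opposite IPK1, listed in 5 and in 4 of 5. With lists of equal length these counts were 3 and 0. LDOX was listed in 3 of 5 and CHIL in none.

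Among the other lists, 3 of 5 photoprotection genes were members. Besides SIG5 these were ELIP1, an early light-induced protein of the thylakoid, whose peak 630 bp away ranked 27.5, 45 and 19.5 in HY5-VP16 and 3955.5 in HY5-SRDX replicate 2, against 38.5, 109 and 103 in HY5ox, and UVR3, a photolyase gene named in addition to the pair AT3G15640 and AT3G15630. Of 16 hormone genes 4 were members. ABI1, a phosphatase that restrains abscisic acid signalling, lay opposite the disease resistance gene RPS2, and its peak ranked 170.5, 205 and 905 in the HY5-VP16 libraries and 62 and 153.5 in the HY5-SRDX ones, against 203, 260.5 and 524 in HY5ox. Its relatives ABI2 and HAB1 also had central peaks, 28 bp and 51.5 bp from the midpoint, listed in 5 and 4 of 5. ABI2 had a further peak 35 bp from AT5G57040, listed in 2. ERF4, an ethylene response repressor, was listed in 3.

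B-box genes, which encode zinc finger proteins, some of them partners of HY5, contributed 6 of 19. BBX29 had a peak 477 bp away listed in all 5 and another 1422 bp away listed in none. The peak of BBX4 was listed in all 5, those of BBX28 and BBX19 in 4, that of BBX30 in 3 and that of BBX3 in 1. Of 13 plastid pigment genes 2 were members. PSY, the first committed enzyme of carotenoid synthesis, was listed in 4 of 5. CHLG, chlorophyll synthase, had one peak listed in all 3 HY5-VP16 libraries and neither HY5-SRDX library and another listed in none of the 5. APR2 was the only one of 11 nitrate and sulfate genes.

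Double peaks like those at TOC1, HFR1 and PHYB were rare. There were 56 pairs with 2 peaks and 1 with 3. The 56 promoters had start sites a median of 1520.5 bp apart and peak centres a median of 1065 bp apart (660 to 1896 bp). In 9 of the 56 both peaks had the same presence in all 5 HY5-VP16 and HY5-SRDX libraries, and in 4 all 5 libraries listed both.

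Central peaks occurred in narrow and in wide promoters. Among those listed in all 8 libraries the most central were between TPS9, a trehalose phosphate synthase family gene, and RSZ21, a splicing factor, at 1341 bp from each start, between AT3G63510 and TTA2 at 170 and 169 bp, between AT5G25520 and AT5G25510 at 130 and 125 bp in HY5ox replicate 1, between AT2G41705 and the transporter gene ABCA1 at 588 and 577 bp, and between PYD1, an enzyme of pyrimidine breakdown, and AT3G17800 at 468 and 480 bp. The peak of AT5G25520 was central only in part of the libraries. Its start sites were 255 bp apart, and its centre lay 159.5 bp from the midpoint in HY5-VP16 replicate 2 and 199.5 bp in HY5-SRDX replicate 1, beyond the start of AT5G25520. It was listed in 3 of 5 libraries with an overlap of 50% and in 1 with lists of equal length. The PYD1 peak had the best mean rank of the central peaks, with ranks 170.5, 301.5 and 220 in the HY5-VP16 libraries and 94.5 and 120 in the HY5-SRDX ones, against 541, 198 and 309.5 in HY5ox.

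The best-ranked peaks that no HY5-VP16 or HY5-SRDX library listed were those of AGL67 with AT1G77940, AT1G76740 with COG0212, FIB with AT4G04010, MPC with AT3G19340 and SAC8 with CHLG. The AGL67 peak ranked 1214, 804 and 1208.5 in HY5ox, and the other 4 ranked between 1503.5 and 4372. The extremes of width were listed in part. The 3 narrowest pairs, whose 5′ ends overlap by 63, 59 and 34 bp (SYN1 with AT5G05480, AT5G57310 with AT5G57300, and AT4G28068 with AT4G28060) were listed in 3, 3 and 2 of 5 libraries. The 3 widest, AT4G12423 with SKU5, ERD4 with AT1G30350 and HAC5 with AT3G12970, at 4022, 4002 and 3952 bp, were listed in 4, 4 and 3.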

How the data were processed

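Peaks had been called per library with HOMER 4.9.1 against the control of the same set, after base calling with CASAVA 1.8.2 and alignment with Bowtie2 2.3.0 to TAIR10, per the submitters' processing notes. Per the file headers, the false discovery rate was 0.001, and peaks needed a fold of 3 over control and 2 over local signal. The deposited tables give for each peak the signal (normalised tag count), the findPeaks score, the fold ratio over control, p-values, and the fraction of its tags near the centre. No label or header names the gene annotation behind the distances. The members and gene lists were chosen with earlier results of these data known.

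From the deposited lists, overlaps of 1 bp or more, percentile ranks of the score, and distances between peak centres and start sites were computed (Python 3.11.15, pandas 2.3.3, scipy 1.17.1) and the code was tested on simulated data. A pair is the nearest gene on each strand. Shares were compared over libraries with two-sided exact permutation tests, with adjusted p-values over the 5 tests, and proportions have 95% Wilson intervals. Of the 2937 genes named, 2889 matched the RefSeq table (TAIR10.1), used for names, types and gene order only.

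Named were the 10 peaks with the best mean rank over the HY5ox lists, the 5 most central in all 8 libraries, the 5 best ranked in no HY5-VP16 or HY5-SRDX library, the 3 narrowest and 3 widest pairs, every peak of a list gene, and HY5. Alternatives were a stricter overlap, score and window, equal list lengths, other HY5ox peak lists, protein-coding pairs, set 1 alone, and leaving out libraries.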

Additional observations from a re-analysis of the deposited data

How the results depend on the processing

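The comparison of rank between divergent and single-gene peaks (0.709 percentile points) had no stable direction. It was -0.119 with an overlap of at least 50% of the narrower peak (exact permutation p = 0.9375), -1.35 with lists of equal length (exact p = 0.25) and -0.624 with the nearer start within 250 bp, an alternative chosen after seeing the data (exact p = 0.75). Leaving out 1 library gave -0.671 to 2.02, with -0.671 without HY5ox replicate 2 and -0.378 without HY5-SRDX replicate 2.

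The number of peaks in all 5 HY5-VP16 and HY5-SRDX libraries (254) was 149 with the upper 50% of each list, 115 with lists of equal length, 134 with both starts within 1000 bp and 164 with the nearer start within 250 bp, settings that use fewer peaks, and 255 to 266 without 1 HY5ox library. The median distance to the nearer start (115 bp) was 109.5 bp and 109 bp with the centres of HY5ox replicates 2 and 3.

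The other comparisons kept their direction. No setting could pass the threshold of 0.05, since the smallest exact p was 0.0625 for divergent against other peaks and 0.1 between constructs. With lists of equal length these smallest values were reached by HY5-VP16 minus HY5-SRDX (exact permutation p = 0.1) and by divergent peaks minus single-gene and minus all others (exact permutation p = 0.0625 for both). HY5-VP16 minus HY5-SRDX was 3.59 to 35.6 points without 1 library and 19.1 to 31.1 under the other alternatives. The gap difference was 2.76 to 4.97 and 0.365 to 5.74, divergent minus single-gene -3.69 to -1.45 and -4.12 to -1.27, and divergent minus all others -3.43 to -0.713 and -4.50 to -0.954. With the replicate number as a block, HY5-VP16 minus HY5-SRDX was 31.1 points and the gap difference 4.17 points (exact p = 0.5 for both, from 2 pairs). The replicate numbers did not pair the libraries: r was -0.0137 over 5101 peaks.

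Of the 70 named peaks, 34 were listed in fewer HY5-VP16 and HY5-SRDX libraries with lists of equal length, 9 with the stricter overlap, and 16 of the 60 still in the set with the upper 50% of each list. None was listed in more. The effect of depth was not tested, and an unlisted peak is not shown to be unbound. Motif content was not run, since no genome sequence was used here.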

Other observations

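Pairs with a tRNA gene, 41 in all, had start sites a median of 800 bp apart, against 1027.5 bp for the 1246 pairs of protein-coding genes. Their peaks were listed at 75.6%, 82.9% and 36.6% in HY5-VP16 replicates 1 to 3 and at 34.1% and 58.5% in HY5-SRDX replicates 1 and 2, against 79.8%, 77.1%, 44.0%, 31.1% and 63.9% for pairs of protein-coding genes. The pair types differed by less than 8 percentage points in each library. Of the 4 pairs with a microRNA gene, HY5-VP16 replicates 1, 2 and 3 listed 3, 3 and 2, and HY5-SRDX replicates 1 and 2 listed 2 and 3.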
